A study of Mus musculus with 16 samples.

Results

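Basal cells line the outer face of the mammary epithelium, and in the mature gland they contract as myoepithelium to eject milk. During puberty the terminal end bud (TEB), the club-shaped tip of each growing duct, drives the epithelium through the fat pad, while the nipple region at the other end of the tree holds its oldest ducts, close to the skin. Basal cells rest on a basement membrane of laminin and collagen IV, to which they hold by integrins, and they are known for keratins 5, 14 and 17 and for smooth muscle actin.

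Basal cells of single nipple fragments were compared with basal cells of single TEB fragments. The cells were chosen by measured levels, which is why the genes of the rule get no test here. A cell was taken as basal when the mean scaled level of *Krt5*, *Krt14*, *Krt17*, *Acta2* and *Mylk* was above that of the marker lists of ER+ luminal, ER- luminal, fibroblast, myeloid and endothelial cells. This rule chose 178 of the 816 nipple and TEB cells that passed the filters, 101 from nipple and 77 from TEB, out of 1419 cells deposited for the series. The 4 nipple fragments gave 25, 29, 22 and 25 basal cells and the 6 TEB fragments gave 6 to 23.

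All fragments came from C57BL/6 mice by the labels, which name the tissue and the strain and no treatment. The study's descriptions give 5 weeks as the age and Krt14-Cre with the mTmG reporter as the genotype in one place, and a slightly wider age range with the same line or wild-type mice in another, so the reporter may be present in some or all fragments of both locations. Krt14-Cre acts in cells that use the *Krt14* promoter, which include basal cells and skin keratinocytes. The mouse behind each fragment was not named, and if fragments share a mouse the p-values measure the spread between fragments only. Fragments were dissected singly, digested with collagenase and TrypLE, and their cells were sorted into plates for 3' SMART-seq with unique molecular identifiers (UMIs), in which each count stands for 1 captured molecule, and ERCC spike-in RNA.

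The marker levels and scores of the classes are given as a description, since the rule used them, and they are no test of the label. In CPM (a gene's UMIs scaled to the class total of the fragment), *Krt14* was 4800 to 6287 in nipple and 429 to 911 in TEB basal cells, against 42.2 to 431 in nipple and 5.83 to 16.1 in TEB ER+ luminal cells. The ER- luminal class was less separate by this gene, at 1363 to 2651 in nipple, above all TEB basal values, and 2.31 to 665 in TEB. The basal score led the next class by a median of 1.62 in nipple and 0.723 in TEB, and 5 nipple and 31 TEB cells lay within 0.5 of the cut on the basal side, with 9 and 6 on the other side. The members nearest the cut led by 0.0328 in T31, 0.05001 in N22 and 0.0779 in T43, and the nearest cells outside it were at -0.00228 in T43, -0.0398 in N21 and -0.0413 in T43.

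Depth and cell mixture differed between fragments. Basal cells held a median of 20797 UMIs in nipple and 43797 in TEB, and the UMIs summed per fragment were 448359 to 680859 in nipple and 302813 to 1210315 in TEB. TEB fragments T42 and T43 stood apart from T31 to T34. They held 40 of the 77 TEB cells, and 19 of these lay within 0.5 of the cut. The RNA of a basal well that could come from the pool of its fragment was estimated from the fibroblast and myeloid genes the well held. It was put at 19.6% in T42 and 16.4% in T43. The other TEB fragments were at 3.42 to 5.66% and nipple at 4.53 to 9.53%. The pool held all deposited cells of the fragment, the basal cells included, and is called the other wells below. The first digit of the fragment names was 2 for every nipple fragment and 3 or 4 for TEB, and if it marks a batch, batch and location cannot be told apart. Each of the 95 barcode names of the table occurred in several fragments, as plate barcodes do. Cells in which *Krt5* and *Krt18* each had 10 or more UMIs numbered 58 of 101 in nipple and 19 of 77 in TEB.

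The genes that chose the cells were themselves at different levels, which is given here as a description with no test. Levels from here on are CPM of the fragment's basal UMIs, scaled by TMM, and are given as mean ± SD over 4 nipple and 6 TEB fragments. *Krt14*, the keratin of dividing basal layers, was at 6290.2 ± 741 CPM in nipple and 606 ± 199.6 in TEB. *Krt17* was at 5682 ± 641 and 1912 ± 660.0, and *Krt5*, the partner of *Krt14*, at 1505 ± 171 and 525.7 ± 249.9. *Acta2*, smooth muscle actin, was closer between the locations at 4705 ± 363 and 3126 ± 781, and *Mylk*, the kinase that starts smooth muscle contraction, was at 469 ± 99.9 and 89.9 ± 52.3. On this scale no nipple fragment overlapped a TEB fragment in any of the 5 genes. Without TMM scaling *Acta2* overlapped, at 4062 to 4728 CPM in nipple and 2140 to 4386 in TEB. *Krt18*, the luminal keratin used against the class, was at 1037 ± 247 and 284 ± 57.4 CPM, and 88.7% of its TEB counts were the number expected from the other wells.

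**Figure D1:**
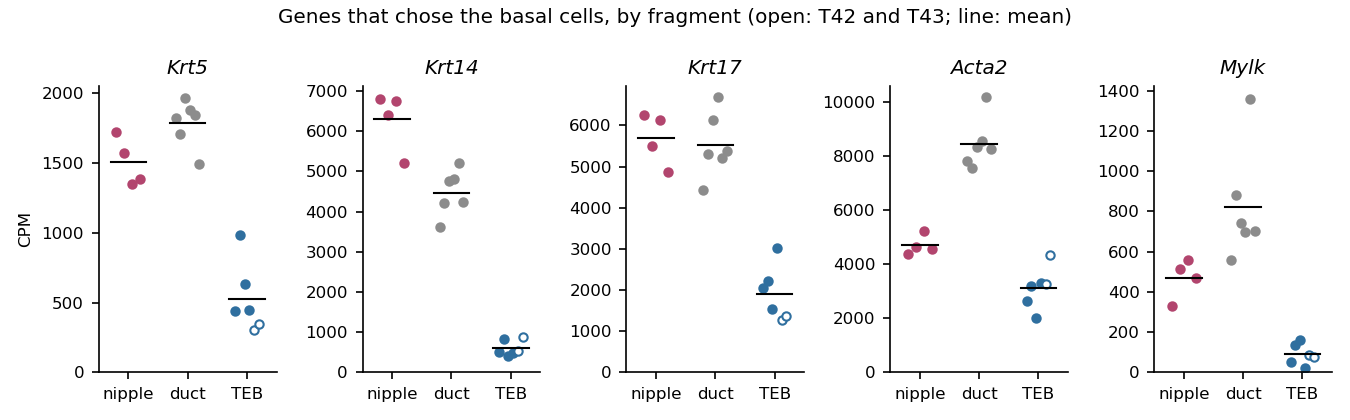
Levels of the 5 genes that chose the basal cells, in CPM scaled by TMM, with 1 point per fragment, a line at the mean of each location and open points for T42 and T43. The nipple points lie above all TEB points in each of the 5 panels, and the means of *Krt14* are 6290.2 and 606 CPM.

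Of 7185 genes tested across the transcriptome, 1309 (18.2%) differed between nipple and TEB basal cells at an adjusted p under 0.05, 656 (9.13%) higher in nipple and 653 (9.09%) higher in TEB. These shares are the background for every gene group below. A gene that passed this test is called, and all differences are log2 nipple minus TEB with their standard errors, so that positive values are higher in nipple. Fragments of the 2 locations did not overlap in 1045 of all genes tested and in 882 of the called genes, and 565 of the called genes differed by over 2 on the log2 scale. The duct mean lay between the other two in 1054 of the called genes. Over all 1309 called genes, it was nearer to nipple than to TEB on the log2 scale in 669. With T31 to T34 as the only TEB fragments 901 of 6707 genes were called, 503 (7.50%) higher in nipple and 398 (5.93%) higher in TEB. The calls are relative to all RNA of the cells. When libraries were scaled to their ERCC counts, the median over all genes moved from -0.02 to -1.33, so that 137 genes were called higher in nipple and 3787 higher in TEB.

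The amount of RNA captured per cell also differed. Endogenous UMIs per ERCC UMI, as the median cell of each fragment, were 72.0, 76.9, 67.7 and 66.0 in nipple, and 133, 159 and 178 as the lowest, median and highest TEB fragment. The groups did not overlap, with means of 70.7 ± 4.87 (SD, n = 4) and 159 ± 17.0 (SD, n = 6), a ratio of 2.25 (two-sided exact permutation test, p = 0.00952, the smallest this design can give). TEB basal cells also held a wider range of genes. After each cell was thinned to 5000 UMIs, nipple cells held 1520.1 ± 6.40 genes (SD, n = 4) and TEB cells 1924.6 ± 44.7 (SD, n = 6), a difference of -404 (two-sided exact permutation test, p = 0.00952). With T31 to T34 alone the differences were -90.7 and -393 (exact permutation p = 0.0286 for both, again the smallest possible). What accounts for the difference was not tested.

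**Figure D2:**
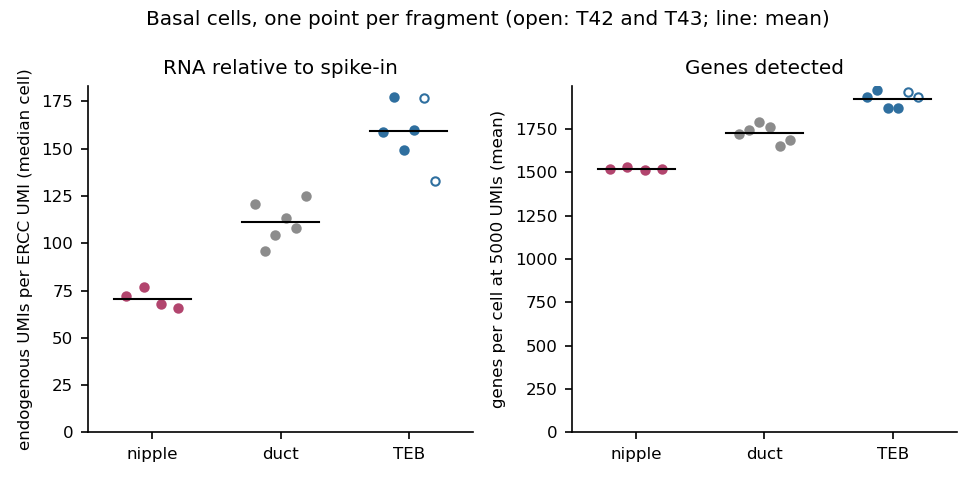
Endogenous UMIs per ERCC UMI (left, median cell) and genes detected per cell at 5000 UMIs (right, mean) in basal cells, with 1 point per fragment, a line at the location mean and open points for T42 and T43. Nipple points lie at 66.0 to 76.9 and 1516 to 1530 genes, below all duct and TEB points in both panels.

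Among well-expressed genes (at least 50 CPM in the higher location, with no overlap), those with the largest differences towards nipple were *Slpi*, *Tspan8*, *Ccdc129*, *Cp*, *Scn7a*, *Ltbp2*, *Mmp3*, *Rrad*, *Ifi202b* and *Tppp3*. *Slpi* (chr2:164354070-164389095, GRCm38, minus strand) encodes a secreted inhibitor of leukocyte proteases. Its 4 nipple fragments held 2474, 1665, 2485 and 2988 CPM, and its lowest, median and highest TEB fragments held 0, 3.21 and 9.63 CPM. Every nipple fragment was far above every TEB fragment, by 9.24 ± 0.78 (adjusted p = 1.46e-06) or 605-fold, and duct, at 0 to 75 CPM, was on the TEB side.

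*Tspan8* (chr10:115816832-115849893, plus strand), a tetraspanin of the cell surface, held 379, 192, 141 and 246 CPM in nipple and 0, 1.91 and 2.97 in the lowest, median and highest TEB fragment. The groups were separate, with a difference of 6.95 ± 0.65 (adjusted p = 6.43e-10). *Ltbp2* (chr12:84783212-84876532, minus strand) encodes a matrix protein of the latent TGF-beta binding family, and held 221, 131, 136 and 130.2 CPM in nipple and no UMI in any TEB fragment. Against a floor of 3 UMIs over the TEB fragments it was at least 161-fold higher in nipple (adjusted p = 5.52e-12), and duct held 116 to 354 CPM.

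*Cp* (chr3:19957054-20009145, plus strand), the copper-carrying ferroxidase ceruloplasmin, held 113, 267, 259 and 241 CPM in nipple and 0, 0 and 3.21 in the lowest, median and highest TEB fragment. With 459 nipple against 2 TEB UMIs, its ratio of pooled rates was 355 (95% counting interval 97.6 to 2936), and its adjusted p was 4.68e-11. *Scn7a* (chr2:66673425-66784914, minus strand), a sodium-sensing channel, held 162, 178, 234 and 205 CPM in nipple and 2 UMIs in all TEB fragments, a ratio of 306 (95% counting interval 84.1 to 2534) (adjusted p = 1.09e-08). The rule that chose these 10 genes, and the 10 on the TEB side, asked for no overlap between the locations, so their separation is no result.

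*Tppp3*, a microtubule-binding protein, had like levels in duct (306 to 851 CPM) and nipple (296 to 577), and its TEB fragments held 0 to 28.5 (difference 4.94 ± 0.42, adjusted p = 1.10e-08). *Ccdc129* held 57.1 to 163 CPM in nipple and was listed at 0 in T31 to T34, with 0 to 8.71 over all TEB fragments (32-fold, adjusted p = 2.76e-05). *Ifi202b*, an interferon-inducible gene whose reads may be shared with close paralogs, differed by 5.27 ± 0.81 (adjusted p = 1.06e-05). *Rrad*, a small GTPase, differed by 5.51 ± 1.46 (adjusted p = 0.0124) and was not called with T31 to T34 alone (adjusted p = 0.0837). *Mmp3* (stromelysin) ranged from 36.8 to 155 CPM in nipple, but 84.2% of its nipple counts were the number expected from other wells, and whether basal cells express it was not tested.

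The 10 genes with the largest differences towards TEB were *Serpinb11*, *A230065H16Rik*, *Bex2*, *Col11a1*, *Sema3b*, *Gpx2*, *Tmem59l*, *Col9a1*, *Birc5* and *St8sia6*. *Serpinb11* (chr1:107361198-107380475, plus strand), a clade B serpin, held no UMI in the 4 nipple fragments and 109.5, 249.9 and 311 CPM in the lowest, median and highest TEB fragment. The TEB level was at least 199.8-fold the nipple floor (adjusted p = 1.08e-11), and duct was intermediate at 38.7 to 96.8 CPM. *Sema3b* (chr9:107597674-107609229, minus strand), a secreted semaphorin, held 1 UMI in nipple and 1290 in TEB. Its TEB fragments held 206, 386 and 396 CPM as lowest, median and highest, all above the 7.22 to 45.4 CPM of duct, and the ratio was 835 (95% counting interval 149.6 to 33008) with an adjusted p of 9.79e-12.

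*Gpx2* (chr12:76792333-76795554, minus strand), a glutathione peroxidase of epithelia, held 1 UMI in nipple and 133, 264 and 623 CPM in the lowest, median and highest TEB fragment. Duct was near the nipple side at 0 to 11.9 CPM, and the ratio of TEB to nipple was 535 (95% counting interval 95.7 to 21145) (adjusted p = 9.86e-09). *Bex2* (chrX:136066564-136068236, minus strand), a small adaptor protein encoded on the X chromosome, had no nipple UMI and 104, 163 and 376 CPM in TEB, at least 217-fold higher (adjusted p = 7.45e-04). The highest *Bex2* values were those of T42 and T43, and with T31 to T34 alone its adjusted p was 4.92e-05.

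Genes for 2 cartilage-type collagens were among the same 10. *Col11a1* (chr3:114030540-114220718, plus strand) had no nipple UMI and 67, 151 and 225 CPM in TEB, at least 133-fold higher (adjusted p = 1.27e-09), with 37.8 to 157 CPM in duct. *Col9a1* (chr1:24177610-24252684, plus strand) likewise had no nipple UMI and 11.3, 53.2 and 181 CPM in TEB, at least 94.7-fold higher (adjusted p = 7.61e-06), and its top values were in T42 and T43. The long non-coding RNA *A230065H16Rik* was at least 233-fold higher in TEB, *Tmem59l* at least 66.7-fold and the sialyltransferase gene *St8sia6* at least 56.1-fold, each without a nipple UMI (adjusted p = 4.78e-05, 1.35e-08 and 3.16e-07). With T31 to T34 as the only TEB fragments all 10 remained called, as did 9 of the 10 nipple genes, *Rrad* being the exception.

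**Figure D3:**
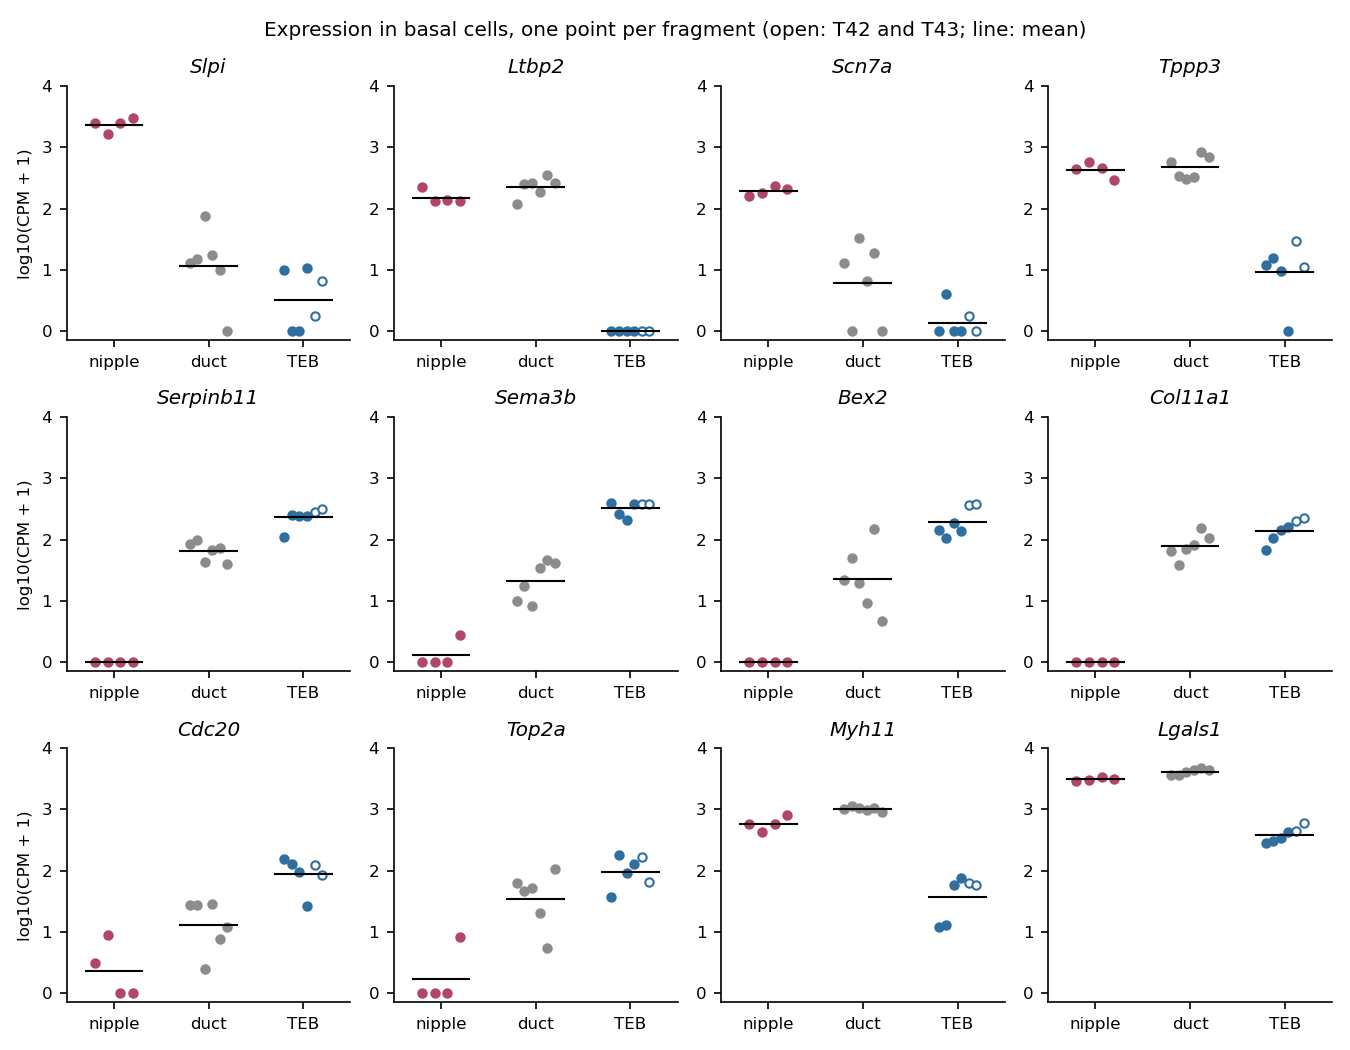
Levels of 12 genes in basal cells as log10(CPM + 1), with 1 point per fragment, a line at the location mean and open points for T42 and T43. *Slpi*, *Scn7a*, *Ltbp2*, *Tppp3*, *Myh11* and *Lgals1* are higher in nipple than in TEB and the other 6 genes higher in TEB, with no overlap in any panel, and duct lies with or above nipple for *Ltbp2*, *Tppp3*, *Myh11* and *Lgals1* and near TEB for *Slpi*.

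Genes of mitosis were the most one-sided group. Of 51 genes listed for the mitotic kinases and cyclins, the spindle and kinetochore, and chromosome condensation and exit, 37 were tested, 36 were called higher in TEB and 0 higher in nipple, with a median difference of -4.28 against -0.02 over all genes (-4.26 with the 6 members that had no nipple UMI set to their bound). With T31 to T34 alone 27 of 30 were called higher in TEB, and without cells holding both *Krt5* and *Krt18* 11 of 18. The summed level of the list was 1272 to 1691 CPM in nipple and 4056 to 7289 in TEB.

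*Cdc20*, the activator of the anaphase-promoting complex, held 2.16, 8, 0 and 0 CPM in nipple and 25.7, 107 and 156 in the lowest, median and highest TEB fragment. *Top2a*, the topoisomerase that untangles chromosomes, held 0, 0, 0 and 7.14 CPM in nipple and 35.8, 108 and 175 in TEB. Neither gene overlapped between the locations, with differences of -5.06 ± 0.83 and -5.66 ± 0.87 (adjusted p = 2.71e-05 and 1.25e-05). *Birc5* (survivin, a member of the chromosomal passenger complex) had no nipple UMI and 17.9, 75.2 and 159.9 CPM in TEB, at least 72.3-fold higher (adjusted p = 4.71e-06). *Plk1*, a kinase of mitotic entry, also had no nipple UMI and was at least 25.7-fold higher in TEB (adjusted p = 0.00365), although T34 had none either. The spindle motor *Kif11* had 1 UMI in nipple and 116 in TEB (ratio 75.1 (95% counting interval 13.2 to 2991), adjusted p = 0.00239). *Mki67*, the Ki-67 antigen of cycling cells, held 0 to 9.6 CPM in nipple and 9.63 to 107 in TEB (difference -3.05 ± 0.83, adjusted p = 0.00836). The single member not called was the spindle protein gene *Ckap2*, at 6.1 ± 7.35 and 31.1 ± 16.2 CPM (adjusted p = 0.127).

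Promoters of the listed genes are shown as background, and whether their motifs play a part in the differences was not tested. Here and below, motif shares cover all listed genes with a promoter, called or not. Many mitotic promoters hold the cell cycle homology region (CHR), searched as TTTGAA on both strands. It occurred in 29 of 41 listed mitosis genes with a promoter in RefSeq (70.7%, GRCm38.p6, 250 bases before to 50 after the start), against 20.2% of all 27025 genes with a promoter. CCAAT, on both strands, occurred in 32 of the 41 (78.0%) against 41.1%. In the 3 windows below, written on the strand of the gene, capitals mark the CHR letters (TTTGAA, or TTCAAA where they lie on the other strand), which end 13, 18 and 14 bases before the start of *Cdc20* (chr4:118437347-118437370, minus strand), *Top2a* (chr11:99024198-99024221, minus strand) and *Kif11* (chr19:37376354-37376377, plus strand).
Cdc20: cagttgggtTTTGAAggagccaat
Top2a: agataaaggTTCAAAtgaaactag
Kif11: tctccatttTTCAAAattgaggcg

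The genes of DNA replication were also one-sided, with fewer called. Of 42 listed, 32 were tested, 15 were called higher in TEB and 0 higher in nipple (median -2.22). Their summed level was 573 to 784 CPM in nipple and 1419 to 2967 in TEB. With T31 to T34 alone 7 of 26 were called, and without cells holding suprabasal marker UMIs 3 of 21. *Mcm5*, a subunit of the replicative helicase, held 0, 0, 9.86 and 1.78 CPM in nipple and 27, 69.6 and 155 in TEB, with no overlap (difference -4.89 ± 0.81, adjusted p = 3.20e-05). Its partner *Mcm2* had no UMI in nipple and 3.21 to 87.4 CPM in TEB, at least 38.6-fold higher (adjusted p = 3.14e-04).

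*Rrm2*, which supplies deoxynucleotides, differed by -3.61 ± 0.84 (adjusted p = 0.00212), and the primase gene *Prim1* by -3.93 ± 0.90 (adjusted p = 0.00185). *Pcna*, the replication clamp, was not called, at 129.8 ± 51.8 CPM in nipple and 158 ± 71.8 in TEB (difference -0.29 ± 0.33, adjusted p = 0.611). The E2F motif, searched as TTTGGCGC or TTTCGCGC on both strands, was in 10 of 34 promoters of the list (29.4%) against 0.929% of all genes, and the CHR was in 5 (14.7%). In the *Mcm5* promoter (chr8:75109352-75109375, plus strand) the motif ends 142 bases before the start, and capitals mark its letters read on the other strand.
Mcm5: gaactttcGCGCCAAAacgtccag

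Genes that set the entry into the cycle followed the same direction. Of 24 listed cyclins, kinases, inhibitors, pocket proteins and E2F factors, 11 were tested, 6 were called higher in TEB and 0 in nipple (median -1.28). *Ccnd2* (cyclin D2) held 60.6, 139, 153 and 137 CPM in nipple and 586, 671 and 791 in TEB, with no overlap (difference -2.47 ± 0.23, adjusted p = 4.75e-10). *Cdk4*, its kinase, differed by -1.79 ± 0.23 (adjusted p = 6.49e-07) and *Ccnd1* by -1.28 ± 0.37 (adjusted p = 0.0135). The inhibitors *Cdkn1c* (p57) and *Cdkn1b* (p27) were higher in TEB too. *Cdkn1c* held 1.78 to 17.3 CPM in nipple and 29.1 to 86.7 in TEB (difference -3.05 ± 0.82, adjusted p = 0.00767), and *Cdkn1b* had 3 nipple UMIs against 108 (ratio 23.3 (95% counting interval 7.76 to 115), adjusted p = 0.019). *Cdkn1a* (p21) was at 918 ± 219 and 1105 ± 178 CPM and was not called (adjusted p = 0.531).

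Genes of smooth muscle contraction were called more often in the nipple than in the TEB direction at standard scaling. Of 37 listed outside the class markers, 34 were tested, 15 were called higher in nipple and 2 higher in TEB, 17 were not called, and the median was 0.83. With ERCC scaling the direction turned, to 6 higher in nipple, 13 higher in TEB and a median of -0.48. The counts were 14 and 2 with T31 to T34 alone, and 6 and 1 of 32 without cells holding both *Krt5* and *Krt18*. The summed level was 17462 to 20320.5 CPM in nipple and 10093 to 13152 in TEB, and duct was above both at 25661.5 to 34463.

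*Myh11*, the smooth muscle myosin heavy chain, held 578, 424, 569 and 809.9 CPM in nipple and 11.2, 56.9 and 73.9 in the lowest, median and highest TEB fragment. The groups were apart by 3.67 ± 0.32 (adjusted p = 2.17e-08), and it was also higher in nipple under ERCC scaling. *Cnn1* (calponin) held 1009, 1009, 828 and 844 and 11.3, 119 and 205 CPM, with no overlap (difference 3.07 ± 0.45, adjusted p = 2.58e-04). Among other thin filament genes, *Lmod1* differed by 2.48 ± 0.32 and *Tpm2* (beta-tropomyosin) by 1.63 ± 0.13 (adjusted p = 3.86e-07 and 1.08e-11). The actin crosslinker *Actn1* differed by 2.16 ± 0.28 (adjusted p = 4.09e-07).

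*Oxtr* (chr6:112473683-112489943, minus strand), the receptor through which oxytocin contracts myoepithelium, held 88.7, 48, 37 and 60.7 CPM in nipple and 0, 1.58 and 8.92 in TEB. The nipple fragments were all above the TEB fragments (difference 3.92 ± 0.67, adjusted p = 4.71e-05), and duct held 28.3 to 86.6 CPM. *Csrp2*, a LIM protein of smooth muscle, went the other way, with 2.16, 12.8, 7.39 and 91 CPM in nipple and 234, 369 and 923 in TEB (difference -4.04 ± 0.80, adjusted p = 0.0027). *Cnn2*, a calponin also found outside muscle, was higher in TEB by -0.84 ± 0.19 (adjusted p = 0.00216). *Cald1* (caldesmon) was at 830.0 ± 109 and 1032 ± 167 CPM and *Myh9*, a non-muscle myosin, at 235 ± 14.1 and 201 ± 51.2, neither called (adjusted p = 0.175 and 0.612).

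The CArG box, the site of serum response factor, occurred in 5 of 28 promoters of this list (17.9%) and in 1.81% of all genes. It is shown in capitals for *Myl9* (chr2:156775295-156775320, plus strand), *Myl6* (chr10:128493042-128493067, minus strand) and *Cnn2* (chr10:79988536-79988561, plus strand), since the 3 genes did not move alike. The myosin light chain genes *Myl9* and *Myl6* were higher in nipple by 0.99 ± 0.26 and 0.53 ± 0.10 (adjusted p = 0.0135 and 1.64e-04) but were lower there with ERCC scaling (-0.32 and -0.79), and *Cnn2* was higher in TEB.
Myl9: agcagaggCCTAATAAGGccgggctg
Myl6: tcttacttCCTTATATGGgcaggacc
Cnn2: cttccacgCCTTATAAGGacatttgc

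The basement membrane list split evenly, with 4 of 15 tested members higher in nipple and 4 higher in TEB (median 0.21). The laminin alpha chains moved in opposite directions. *Lama1* (chr17:67697259-67822647, plus strand), the alpha chain of the early embryonic laminin, held 10.8, 19.2, 4.93 and 5.35 CPM in nipple and 40.2, 113 and 208 in TEB. *Lama5* (chr2:180176373-180225859, minus strand), widespread in adult epithelia, held 259.8, 173, 108 and 164 CPM in nipple and 8.46, 23.5 and 29.3 in TEB. Neither overlapped between the locations, and the differences were -3.40 ± 0.57 and 3.03 ± 0.35 (adjusted p = 3.65e-05 and 7.28e-08).

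*Col4a1* and *Col4a2*, the common chains of collagen IV, were both higher in TEB, by -0.86 ± 0.17 and -1.14 ± 0.22 (adjusted p = 4.23e-04 and 2.06e-04). The matrix proteoglycan gene *Hspg2* (perlecan) was higher in nipple by 2.59 ± 0.44, and *Fbln1* higher in TEB by -1.70 ± 0.36 (adjusted p = 5.15e-05 and 8.57e-04). *Lamb1* was at 114 ± 67.3 and 203 ± 60.5 CPM and was not called (adjusted p = 0.0633). *Sparc*, a collagen-binding matrix protein, was at 3506 ± 325 CPM in nipple and 1701 ± 326 in TEB (difference 1.04 ± 0.13, adjusted p = 2.67e-07, and -0.28 with ERCC scaling).

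Adhesion to this membrane was called in the nipple direction alone at standard scaling. Of 10 hemidesmosome genes tested, 4 were higher in nipple and 0 in TEB (median 0.56), and with ERCC scaling 0 were higher in nipple and 6 in TEB. *Lamb3*, a chain of laminin-332, differed by 1.17 ± 0.25 (adjusted p = 0.00102), against -0.14 with ERCC scaling. *Col17a1*, the hemidesmosome collagen, differed by 0.71 ± 0.22 (adjusted p = 0.0223), was not called with T31 to T34 alone (adjusted p = 0.161), and was at -0.61 with ERCC scaling. *Itga6*, the integrin of basal sorting gates, was at 109 ± 54.7 and 127 ± 62.6 CPM and was not called (adjusted p = 0.74).

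Of 9 other integrin genes tested, 3 were higher in nipple and 0 in TEB (median 0.42, and -0.92 with ERCC scaling). *Itga5*, the fibronectin receptor chain, held 179.7, 208, 195 and 243 CPM in nipple and 28.2, 65.1 and 91.6 in TEB with no overlap (difference 1.83 ± 0.30, adjusted p = 2.42e-05). *Itgb1*, its partner, differed by 0.71 ± 0.15 (adjusted p = 7.56e-04, and -0.62 with ERCC scaling), and *Itga3* by -0.29 ± 0.26 without a call (adjusted p = 0.491).

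Stromal collagen genes, which fibroblasts express, were also called in basal cells. Of 9 tested outside the class markers, 7 were higher in nipple and 1 in TEB (median 1.24). For 5 of the 9, over 20% of the counts in the higher location were the number expected from other wells, and without these 3 of 4 were higher in nipple and 1 in TEB. *Col6a1* held 188 to 491 CPM in nipple and 3.21 to 33.8 in TEB (difference 4.26 ± 0.36, adjusted p = 6.60e-11), with 24.9% of its nipple counts expected from other wells. For *Col1a2* (3.39 ± 0.38, adjusted p = 3.66e-08) that share was 68.2%. The fibroblast genes of the class rule summed to 656 to 1255 CPM in nipple and 170 to 334 in TEB basal cells, and the part of RNA from other wells in the collagen calls was not tested.

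The TGF-beta and BMP list held calls in both directions, 11 of 30 higher in nipple and 6 higher in TEB (median 0.59, and -0.75 with ERCC scaling). TGF-beta ligands bind receptors that act through Smad proteins, and cells answer with feedback genes. *Pmepa1*, a feedback inhibitor induced by the pathway, held 846, 605, 658 and 785 CPM in nipple and 24.6, 64.8 and 90.2 in TEB. *Smad7*, another feedback inhibitor, held 147, 104, 123 and 169 and 8.46, 13.1 and 20.3. Both were separate between the locations, by 3.50 ± 0.24 and 3.26 ± 0.38 (adjusted p = 5.89e-13 and 6.55e-08), and remained called with T31 to T34 alone (adjusted p = 2.04e-10 and 9.36e-07).

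The type 1 receptor gene *Tgfbr1* was higher in nipple by 2.53 ± 0.45 (adjusted p = 8.25e-05), while *Tgfbr2* was at 82.8 ± 22.1 and 47.7 ± 20.6 CPM and was not called (adjusted p = 0.205). On the TEB side were *Sostdc1*, a secreted antagonist of BMP and Wnt, *Fbn2* (fibrillin 2) and the ligand gene *Bmp7*. *Sostdc1* held 6.49, 32, 24.6 and 0 CPM in nipple and 125, 179 and 268 in TEB with no overlap (difference -3.53 ± 0.82, adjusted p = 0.00463). *Fbn2* had 3 UMIs in nipple and 253 in TEB (ratio 54.6 (95% counting interval 18.5 to 266), adjusted p = 3.03e-05). *Bmp7* differed by -1.83 ± 0.54 (adjusted p = 0.0146) and was not called with T31 to T34 alone (adjusted p = 0.0573).

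Of 22 Wnt pathway genes tested, 4 were higher in nipple and 2 in TEB. The ligand genes lay on both sides. *Wnt6* had no nipple UMI and 2.97, 58.3 and 79.9 CPM in TEB, at least 49.4-fold higher (adjusted p = 6.25e-05). *Wnt10a* held 14.3 to 72 CPM in nipple and 0 to 17.9 in TEB (difference 2.37 ± 0.62, adjusted p = 0.00717), and duct was highest at 86.7 to 262. The secreted inhibitor *Sfrp1* held 149, 243, 202 and 357 CPM in nipple and 3.38, 7.79 and 89.4 in TEB (difference 3.55 ± 0.68, adjusted p = 5.92e-04), and the highest TEB value was that of T31. *Sfrp2* differed by 3.66 ± 0.82 (adjusted p = 0.00151), with 26.2% of its nipple counts expected from other wells. *Tcf7l2*, a transcription factor of the pathway, was higher in TEB by -1.67 ± 0.35 (adjusted p = 6.24e-04). *Wif1* and *Ctnnb1* (beta-catenin) were not called, at -0.58 ± 0.45 and -0.04 ± 0.30 (adjusted p = 0.425 and 0.943).

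In the FGF list 0 of 11 were higher in nipple and 2 were higher in TEB, both of them ETS factors induced by the pathway. *Etv4* held 28.1, 41.6, 4.93 and 8.92 CPM in nipple and 138, 179 and 219.9 in TEB, and *Etv5* 10.8, 14.4, 7.39 and 57.1 and 83.3, 150.1 and 154. Both were separate, by -3.06 ± 0.47 and -2.55 ± 0.53 (adjusted p = 1.09e-05 and 6.62e-04). The phosphatase gene *Dusp6* and the receptor gene *Fgfr1* were not called, at -0.55 ± 0.28 and 0.58 ± 0.27 (adjusted p = 0.181 and 0.142, with *Fgfr1* at -0.73 under ERCC scaling). In the EGF list 2 of 9 went each way. The ligand gene *Nrg1* was higher in TEB by -1.36 ± 0.27 and the receptor gene *Erbb2* had 2 nipple against 108 TEB UMIs (ratio 35 (95% counting interval 9.45 to 292)), with adjusted p = 3.61e-04 and 0.00234. *Errfi1*, the feedback inhibitor of EGF receptors, was higher in nipple by 2.27 ± 0.33 (adjusted p = 3.21e-05), and *Egfr* was not called at 1.17 ± 0.63 (adjusted p = 0.214).

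The IGF binding proteins, which hold IGFs outside the cell, went both ways. *Igfbp5* held 983, 1113, 1316 and 908 CPM in nipple and 15.6, 89.7 and 172 in TEB. *Igfbp4* held 10.8, 30.4, 17.3 and 105 and 273, 394 and 558, and *Igfbp2* 69.3, 60.8, 81.3 and 152 and 169, 420.5 and 834. No fragment overlapped, with differences of 3.49 ± 0.46, -3.25 ± 0.50 and -2.29 ± 0.41 (adjusted p = 9.12e-05, 8.67e-05 and 0.00106). Of the 9 tested genes of the family 3 were higher in nipple and 2 in TEB (median 0.96, and -0.35 with ERCC scaling), and *Igf1r* was not called (adjusted p = 0.188).

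Of 11 Notch genes tested only the ligand gene *Jag1* was called, higher in nipple by 1.84 ± 0.39 (adjusted p = 9.57e-04), and *Notch1* and the target *Hes1* had adjusted p of 0.562 and 0.227. Among 19 guidance genes, 1 was higher in nipple, the semaphorin gene *Sema3c* (1.76 ± 0.41, adjusted p = 0.00213), and 2 in TEB, *Sema3b* and *Sema4a* (-2.89 ± 0.79, adjusted p = 0.00855). Of its receptor genes 0 of 5 passed the test, and of its slit, netrin and ephrin genes 0 of 8.

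**Figure D4:**
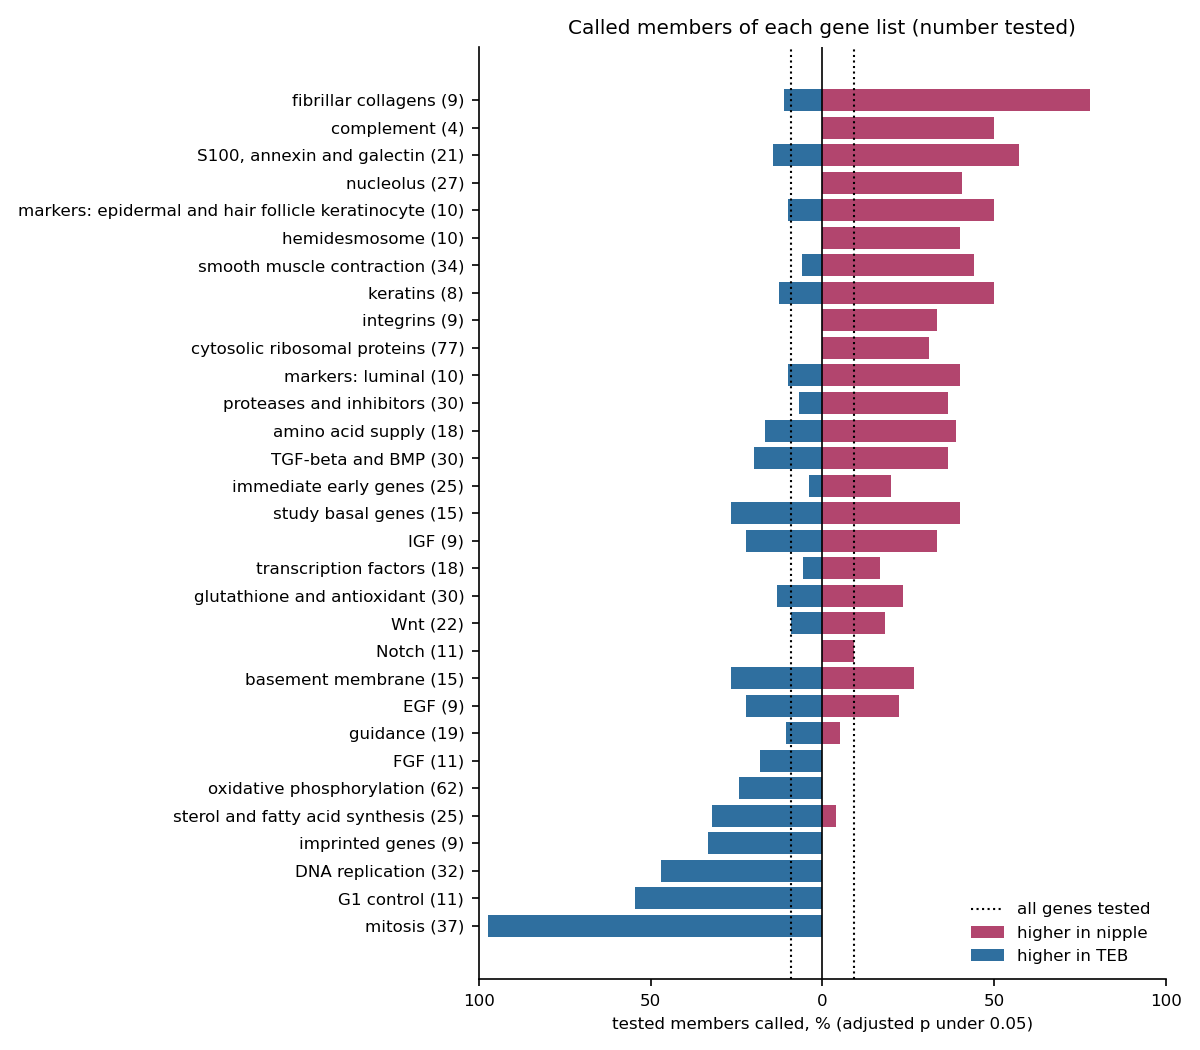
Share of the tested members of each gene list called higher in nipple (right) and higher in TEB (left), in %, with the number tested in brackets and dotted lines at the shares over all genes, 9.13 and 9.09%. Mitosis reaches furthest to the TEB side with 36 of 37 members, and the nipple side of several lists, smooth muscle contraction among them, turns with ERCC scaling.

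Of 21 tested genes for S100 proteins and annexins, which bind calcium, and galectins, which bind sugars, 12 were higher in nipple and 3 in TEB (median 0.87), and ERCC scaling turned the counts to 4 and 9. The summed level was 18946 to 21371.5 CPM in nipple and 8673 to 11819 in TEB, and every duct fragment was above nipple, at 21798 to 24295. *Lgals1* (galectin 1) held 2918, 3044, 3392 and 3095 CPM in nipple and 284, 386 and 589 in TEB. No fragment overlapped, and the difference was 2.96 ± 0.14 (adjusted p = 5.20e-17). *Lgals9* differed by 4.49 ± 0.46, *S100a6* by 1.79 ± 0.14 and *Anxa2* by 1.41 ± 0.14 (adjusted p = 5.65e-09, 3.68e-11 and 2.04e-09). *S100a14* was higher in TEB by -1.92 ± 0.59 (adjusted p = 0.0279), with overlapping fragments.

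Of 30 proteases and inhibitors tested, 11 were higher in nipple and 2 in TEB (median 0.82, and -0.49 with ERCC scaling), and 10 of the 30 had over 20% of the counts of their higher location expected from other wells. *Plaur*, the urokinase receptor, held 779, 901, 991 and 1265 CPM in nipple and 159, 251 and 321 in TEB. *Serpinb5* (maspin), a serpin of myoepithelial cells, held 597, 517, 473 and 579.8 and 39.5, 124 and 152. The groups were apart by 1.97 ± 0.20 and 2.29 ± 0.24 (adjusted p = 3.67e-09 and 8.98e-09). The serine protease gene *Prss23* differed by 3.17 ± 0.39 and *Mmp2* (gelatinase A) by 4.30 ± 0.59 (adjusted p = 4.43e-06 and 4.71e-06), with 23.8% of the nipple counts of *Mmp2* expected from other wells.

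Apart from *Serpinb11*, the inhibitor higher in TEB was *Serpinf1*, which encodes PEDF, a secreted inhibitor of new vessels. Its nipple fragments held 64.9, 101, 121 and 85.6 CPM and its TEB fragments 336, 468 and 506, with no overlap (difference -2.25 ± 0.34, adjusted p = 7.88e-06). *Cst3* (cystatin C) was not called, at 663 ± 154 and 876 ± 361 CPM (adjusted p = 0.233). Of 4 complement genes tested 2 were higher in nipple, one of them *C4b* (3.93 ± 0.93, adjusted p = 0.00265), and the regulator gene *Clu* was not called (adjusted p = 0.177). For 2 of the 4, over 20% of the counts in the higher location were the number expected from other wells.

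The calls among genes that build ribosomes were in the nipple direction at standard scaling and in the TEB direction with ERCC scaling. Of 77 cytosolic ribosomal protein genes tested, 24 were higher in nipple, 0 in TEB and 53 not called at standard scaling (median 0.21), against 0 and 77 with ERCC (median -1.11). *Rps29* was at 6392 ± 459 CPM in nipple and 3919 ± 507 in TEB (difference 0.71 ± 0.09, adjusted p = 1.09e-06, and -0.62 with ERCC scaling). *Rps26* was not called, at 0.15 ± 0.10 (adjusted p = 0.356, and -1.17 with ERCC scaling).

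Of 27 genes of the nucleolus and the *Myc* family, 11 were higher in nipple and 0 in TEB (median 0.66), against 0 and 7 with ERCC scaling (median -0.68). Their summed level was 8313 to 9076 CPM in nipple and 4723 to 5762 in TEB. *Myc*, the driver of ribosome production, held 309.5, 347, 399 and 337 CPM in nipple and 73.3, 104 and 247 in TEB with no overlap (difference 1.46 ± 0.27, adjusted p = 1.61e-04). The nucleolar helicase gene *Ddx21* differed by 1.79 ± 0.25 (adjusted p = 1.95e-06). *Npm1* (nucleophosmin) was at 1388 ± 216 and 1534 ± 122 CPM and was not called (adjusted p = 0.484). *Mycn*, the *Myc* relative of embryonic tissues and not in that list, was on the other side, with no nipple UMI and 0 to 57.4 CPM in TEB, at least 23.5-fold higher (adjusted p = 0.00364).

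**Figure D5:**
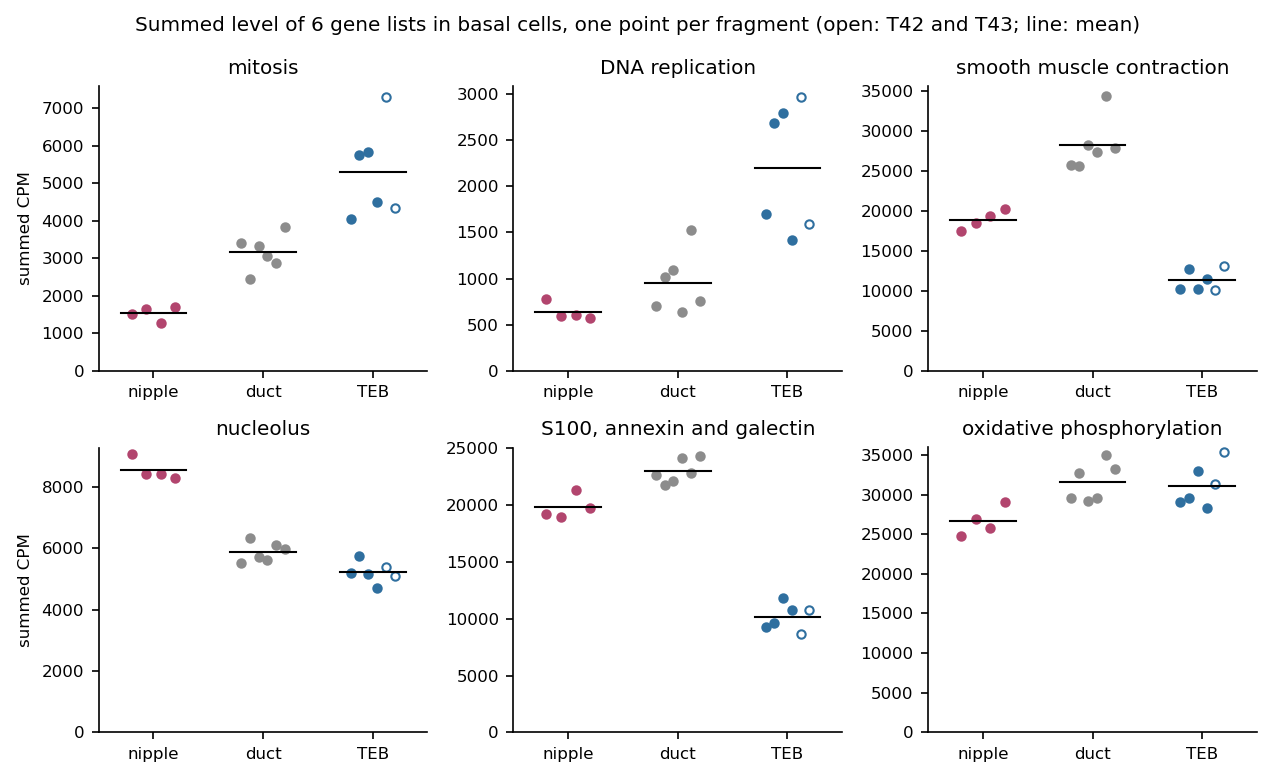
Summed CPM of 6 gene lists in basal cells, with 1 point per fragment, a line at the location mean and open points for T42 and T43. Mitosis and DNA replication are higher in every TEB fragment than in any nipple fragment, smooth muscle contraction, nucleolus and the S100, annexin and galectin list are higher in every nipple fragment than in any TEB fragment, and oxidative phosphorylation overlaps.

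Of 62 oxidative phosphorylation genes tested, 0 were higher in nipple and 15 in TEB (median -0.38), and 4 were called with T31 to T34 alone. The summed level overlapped, at 24808 to 29076 CPM in nipple and 28313.5 to 35403 in TEB. *Ndufa8* of complex I differed by -1.21 ± 0.30 (adjusted p = 0.00458), and *Atp5g2* of the ATP synthase by -1.02 ± 0.29 (adjusted p = 0.0114, and 0.0602 with T31 to T34 alone). *Ndufa4* was at 1179 ± 188 and 1130.0 ± 194 CPM and was not called (adjusted p = 0.819, and -1.25 with ERCC scaling).

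Of 25 genes for sterol and fatty acid synthesis, 8 were higher in TEB and 1 in nipple (median -1.49). *Scd2*, a fatty acid desaturase, held 21.6, 0, 0 and 3.57 CPM in nipple and 56.4, 92.5 and 248 in TEB, with no overlap (difference -4.14 ± 0.76, adjusted p = 1.37e-04). The sterol enzyme genes *Fdps* and *Mvd* differed by -2.13 ± 0.48 and -4.11 ± 1.12 (adjusted p = 0.00176 and 0.00871). *Elovl1*, a fatty acid elongase, was the nipple member (0.91 ± 0.26, adjusted p = 0.0115, and -0.42 with ERCC scaling). *Sqle* was not called (0.18 ± 0.41, adjusted p = 0.817, and -1.14 with ERCC scaling).

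Amino acid transporters and synthesis enzymes gave 7 of 18 higher in nipple and 3 in TEB (median 0.69), against 0 and 7 with ERCC scaling. The cationic transporter gene *Slc7a1* and the mitochondrial folate enzyme gene *Mthfd2* were higher in nipple by 1.70 ± 0.38 and 1.47 ± 0.37 (adjusted p = 0.00146 and 0.00443). *Slc38a1*, a glutamine transporter, was higher in TEB by -2.29 ± 0.68 (adjusted p = 0.0149). Among 30 glutathione and antioxidant genes 7 were higher in nipple and 4 in TEB (median 0.07). *Hmox1* (heme oxygenase) held 318, 785, 359.9 and 449.5 CPM in nipple and 45, 63.4 and 98.1 in TEB, with no overlap (difference 2.85 ± 0.30, adjusted p = 1.06e-08), and 22% of its nipple counts were expected from other wells. The peroxiredoxin genes differed, with *Prdx2* higher in TEB by -1.69 ± 0.21 (adjusted p = 3.16e-07) and *Prdx1* not called (0.09 ± 0.12, adjusted p = 0.675, and -1.22 with ERCC scaling).

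Keratins outside the class markers and markers of neighbouring cell types also moved. *Krt15*, a keratin of basal and hair follicle cells, held 814, 811, 1102 and 1083 CPM in nipple and 96.1, 308 and 604 in TEB, with no overlap (difference 1.57 ± 0.33, adjusted p = 0.00408). *Krt16*, a keratin of stressed epidermis, was higher in nipple by 3.24 ± 0.77, and *Krt23* higher in TEB by -1.81 ± 0.37 (adjusted p = 0.00567 and 5.86e-04). *Krt8*, a luminal keratin, was higher in nipple by 0.92 ± 0.12 (adjusted p = 7.89e-07, and -0.40 with ERCC scaling). Of 8 keratins tested 4 were higher in nipple and 1 in TEB.

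Since nipple fragments lie next to skin, markers of skin and other cell types were counted. Of 10 tested markers of epidermal and hair follicle keratinocytes, 5 were higher in nipple and 1, *Sostdc1*, higher in TEB, and the list summed to 2998 to 3661 CPM in nipple and 845 to 1411 in TEB, with duct at 2684 to 4371. *Postn* (periostin) held 892, 1104, 1311 and 1045 CPM in nipple and 3.21, 18.8 and 96.8 in TEB (difference 4.78 ± 0.51, adjusted p = 1.06e-05), and the water channel gene *Aqp3* differed by 3.83 ± 0.48 (adjusted p = 3.25e-07). Suprabasal epidermis markers summed to 22.2 to 80.3 CPM in nipple and 78.9 to 125 in TEB, and the ranges overlapped. Neither of the 2 tested was called, *Krt10* among them (adjusted p = 0.0815), and *Krt1*, *Calm4* and *Krt77* had no UMI in either location.

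Luminal markers, 10 genes, summed to 5559 to 6725 CPM in nipple and 3913 to 5013 in TEB, with 4 higher in nipple and 1 in TEB. For 6 of the 10, over 20% of the counts in the higher location were the number expected from other wells. The latter was the milk protein gene *Csn3* (chr5:87925579-87932665, plus strand), with 4.33, 40.0, 54.2 and 123 CPM in nipple and 445, 802 and 1186 in TEB (difference -3.92 ± 0.71, adjusted p = 0.00149). *Lcn2* was higher in nipple by 1.31 ± 0.29 (adjusted p = 0.00495, and -0.03 with ERCC scaling) and *Epcam* was not called (0.21 ± 0.19, adjusted p = 0.5, and -1.11 with ERCC scaling). Of the Schwann cell markers *Mbp* and *Pmp22* were higher in nipple (4.01 ± 1.03 and 1.56 ± 0.38, adjusted p = 0.00512 and 0.00331), with the list at 75.8 to 230.3 CPM against at most 83.3, while *Cdh19* and *Ncmap* were at 0 in both. Pericyte and vascular smooth muscle markers summed to 108 to 323 CPM in nipple and 45.0 to 167 in TEB, with 0 of 2 tested members called and *Abcc9* and *Higd1b* at 0. *Rgs5* of that list was too low to be tested and came mostly from N22, at 166 CPM. Adipocyte and lymphocyte markers were at or near 0, and mast cell markers reached 62.8 CPM in N21, 25.6 in N22 and 43.5 in T42. The part of such cells or RNA in the gene calls was not tested beyond the counts without cells holding their UMIs, which were 848 called genes without pericyte-marker cells and 770 without suprabasal-marker cells.

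Of 18 transcription factors of mammary lineages tested, 3 were higher in nipple and 1 in TEB. *Runx1* held 530.3, 483, 481 and 787 CPM in nipple and 67, 86.5 and 155 in TEB, with no overlap (difference 2.55 ± 0.27, adjusted p = 8.98e-09). *Sox4* differed by 1.89 ± 0.46 (adjusted p = 0.00333), and *Nfib* was not called, at -0.33 ± 0.26 (adjusted p = 0.43). Of 9 imprinted genes tested 0 were higher in nipple and 3 in TEB, among them *Mest*, a growth-linked hydrolase gene, with 6.49, 0, 29.6 and 14.3 CPM in nipple and 164, 211 and 277 in TEB (difference -4.14 ± 0.56, adjusted p = 1.42e-06). *Phlda2* had no nipple UMI and was at least 17.9-fold higher in TEB (adjusted p = 4.75e-04), and *Gnas* was not called (0.11 ± 0.21, adjusted p = 0.769, and -1.22 with ERCC scaling). Immediate early genes, which also answer to tissue digestion, were called for 5 of 25 in the nipple and 1 in the TEB direction. *Gadd45b* and *Klf6* were higher in nipple (1.61 ± 0.30 and 0.69 ± 0.16, adjusted p = 1.77e-04 and 0.0022, with *Klf6* at -0.64 under ERCC scaling). *Jun* was higher in TEB (-1.01 ± 0.33, adjusted p = 0.0401, and 0.0971 with T31 to T34 alone), and *Junb* was not called (0.39 ± 0.18, adjusted p = 0.144, and -0.94 with ERCC scaling).

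The study named a set of basal genes, several of them from these samples and others from earlier work or other assays. For those from these samples the direction is not independent evidence. Of 19 such genes, 15 were tested, 6 were called higher in nipple and 4 higher in TEB. Of those named for nipple, *Slpi*, *Tspan8*, *Ccdc129* and *Sfrp1* were called, as above. *Lgr5* (chr10:115450311-115587780, minus strand), a Wnt-linked receptor of stem cells, was too low to be tested, with 47.6, 3.2, 37 and 12.5 CPM in nipple and no UMI in TEB, at least 23.7-fold higher. *Bcl11b*, a zinc finger factor, had 3 nipple and 30 TEB UMIs and was not tested, and *Cd200*, a surface glycoprotein gene, was at 27 ± 18.5 and 31.3 ± 38.1 CPM (adjusted p = 0.874), with 79.2% of its TEB counts expected from other wells. The study itself could hardly detect *Bcl11b* RNA in these cells, and placed it by qPCR, protein staining and the activity of its targets. It placed CD200 in duct and nipple by cell surface staining of the protein, which is not the measure used here.

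Of those named for TEB, *Slc6a15*, an amino acid transporter gene, had 1 nipple UMI against 288 (ratio 186 (95% counting interval 33.2 to 7389), adjusted p = 5.34e-06). *Csn3* and *Mycn* were called as above. *Cd34*, a sialomucin gene, was called at -2.10 ± 0.72 (adjusted p = 0.038), but 25% of its TEB counts were expected from other wells and it was not called with T31 to T34 alone (adjusted p = 0.126). *Tbx2* had no nipple UMI and 58 TEB UMIs, and *Sema3a* 1 and 22, the latter from T42 and T43, and neither was tested. The study also placed CD34 in TEB basal cells by protein staining, and Sema3a by qPCR and protein staining, which are not the measures used here.

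Of 6 stem cell markers, *Dll1*, a Notch ligand gene, and *Sox9* were higher in nipple (1.37 ± 0.43 and 1.56 ± 0.32, adjusted p = 0.0214 and 5.18e-04), *Dll1* not with T31 to T34 alone (adjusted p = 0.103). *Trp63* (p63), *Snai2* (Slug), *Id4* and *Procr* were not called. *Trp63* was at -1.46 ± 0.69 and *Snai2* at -0.70 ± 0.29, both towards TEB (adjusted p = 0.149 and 0.0979). *Id4* was at 0.52 ± 0.64 and *Procr* at 3.07 ± 1.63 (adjusted p = 0.644 and 0.234), and *Procr* ranged from 26 to 555 CPM within nipple. From the same samples, the study described *Dll1* and *Trp63* as broadly spread over the basal populations. Along its trajectory it reported *Sox9*, *Snai2* and *Id4* as more active in nipple and least active in TEB, and of these only *Sox9* was called here.

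In single cells thinned to 5000 UMIs, the leading genes differed in how many cells held a UMI. *Slpi* was found in 79 of 101 nipple cells (78.2%, 80.2% unthinned) and 5 of 77 TEB cells (6.49%, 15.6% unthinned), against 17 of 121 nipple fibroblasts, which had a median of 37611 UMIs before thinning, and 0 of 96 TEB fibroblasts, with 35726.5. *Myh11* was found in 60.4% of nipple and 19.5% of TEB basal cells (77.2 and 33.8% unthinned), against 4.13 and 3.13% of fibroblasts. *Ltbp2* was found in 34.7% of nipple cells (51.5% unthinned) and 0 of 77 TEB cells, which allows a share of up to 3.90%. *Krt14*, a class gene, was found in 96.0 and 49.4% (99.0 and 74.0% unthinned). In the other direction *Csn3* was found in 8.91% of nipple and 72.7% of TEB cells (17.8 and 87.0% unthinned). *Sema3b* was found in 0.990 and 66.2% (0.990 and 87.0% unthinned), with 19.8 and 26.0% of fibroblasts holding it. *Serpinb11* and *Bex2* were each found in 42.9% of TEB cells (67.5 and 62.3% unthinned), and in 0 of 101 nipple cells, which allows up to 2.97%. Of cell cycle genes, *Top2a* was in 19.5% and *Mki67* in 12.99% of TEB cells (27.3 and 24.7% unthinned). In nipple they were in 0.990 and 1.98% (0.990 and 2.97% unthinned). *Birc5* was in 18.2% of TEB cells (37.7% unthinned) and in 0 of 101 nipple cells. A low gene can be missed in a cell that expresses it, so these are not shares of cycling cells. The study's cell cycle analysis placed most TEB cells in the cycle and most nipple basal cells in G0. *Procr* was in 10.9 and 3.90% of basal cells (22.8 and 16.9% unthinned), below the 43.8 and 63.5% of fibroblasts, and no difference is read from its shares. The limits for 0 cells cover counting error only and take cells of 1 fragment as independent, so they describe these cells and not the locations.

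Whether these differences were those of all epithelium was asked by testing the basal difference minus the luminal difference within the same fragments. Against ER+ luminal cells (43 in nipple and 188 in TEB, 10 fragments), 457 of 8770 genes differed between the classes (5.21%), 259 with the higher and 198 with the lower nipple minus TEB value in basal cells. Against ER- luminal cells (51 and 57, 9 fragments) it was 105 of 7353 (1.43%), 58 higher and 47 lower. Tested alone, 561 of 9112 genes (6.16%) differed between nipple and TEB in ER+ luminal cells and 213 of 6593 (3.23%) in ER- luminal cells. *Slpi* was 9.24 in basal and -0.78 in ER+ luminal cells, a difference of 9.97 (adjusted p = 2.36e-04), and *Tspan8* was 6.95 in basal and -0.31 in ER- luminal cells, a difference of 7.08 (adjusted p = 4.65e-08). Both classes were fitted together for these differences, so they can depart slightly from a subtraction of the separate values.

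Of the genes given next, *Serpinf1*, *B2m* and *Gm14005* moved in opposite directions in basal and luminal cells. *Serpinf1*, higher in TEB basal cells, was higher in nipple ER+ luminal cells (2.25), and the difference between the classes was -4.51 (adjusted p = 5.77e-08). *B2m*, the light chain of MHC class I, was 0.78 in basal and -1.21 in ER+ luminal cells, a difference of 2.02 (adjusted p = 5.95e-09). *Gm14005*, a non-coding RNA gene, was -1.91 in basal and 2.40 in ER- luminal cells, a difference of -4.50 (adjusted p = 1.88e-07). The interferon-induced gene *Ifitm3* (1.79 in basal, 0.03 in ER+ luminal) and the syndecan gene *Sdc4* (2.05 and 0.10) differed by 1.79 and 1.94 (adjusted p = 2.47e-08 and 2.80e-08). *Mt1* (metallothionein) was 2.51 in basal and 0.56 in ER- luminal cells, a difference of 1.80 (adjusted p = 1.98e-07), and *Rn45s*, the ribosomal RNA precursor, was 0.74 in basal and -0.10 in ER+ luminal cells (difference 0.85, adjusted p = 4.28e-08).

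By list, 3 of 44 mitosis genes had a more negative difference in basal than in ER+ luminal cells, where 3 of 47 were called higher in TEB on their own (median -1.60), and 3 of 41 than in ER- luminal cells. For DNA replication it was 1 of 35 and 0 of 33, and in ER- luminal cells alone 9 of 32 were called higher in TEB (median -1.94). Smooth muscle genes had 6 of 32 with the higher difference in basal than in ER+ luminal cells, and the S100, annexin and galectin list 8 of 21, with 0 lower in both. Against ER- luminal cells the first list had 1 higher and 1 lower of 31, and the second 2 higher and 3 lower of 21. In ER- luminal cells alone 11 of 21 of the latter list were called higher in nipple and 1 in TEB. A gene called in basal cells and not in a luminal class is not thereby shown to differ between them, and the counts of the test of that difference stand above.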

How the data were processed

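UMI counts per gene were measured in single cells of 16 fragments (4 nipple, 6 duct, 6 TEB). The deposited file holds raw counts that the authors made per cell for 17721 genes and 67 ERCC spike-ins. The submitters' processing notes name FastQC, Trim Galore, UMI-tools, STAR, featureCounts and mm10. All value columns were used (0 left out). Of 1419 cells, 1317 were kept, those with an ERCC share up to 5%, between 5000 and 120000 UMIs and between 200 and 6000 genes. Doublets were not called, since cells were sorted singly.

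Log counts per 10000 were standardised for the class rule. Basal counts were summed per fragment of at least 5 basal cells and tested by edgeR 4.0.16 (R 4.3.3; TMM, filterByExpr, robust quasi-likelihood) over all 3 locations, with Benjamini-Hochberg adjustment over all genes tested. Every adjusted p is from edgeR. Luminal comparisons added fragment as a block and tested class by location. Scripts were tested on simulated data. DESeq2 1.42.0, RLE scaling, filters and cell subsets were alternatives. Counts expected from other wells were the pooled profile of the fragment, multiplied by the fibroblast and myeloid marker share of its basal cells relative to that profile. The profile pooled all deposited cells of the fragment, its basal cells included. Fibroblast and myeloid marker UMIs in basal cells were taken as coming from that pool. Summed depth was 302813 to 1210315 UMIs a fragment, and intervals and floors cover counting error only.

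Genes named are a selection of those given by a rule: the 10 largest differences each way among called genes of at least 50 CPM without overlap, per list role up to 3 called members of at least 20 CPM and the most abundant not called, the genes the study named for basal cells, and the 5 smallest p of each luminal comparison. *Cnn2*, *Mki67*, *Rgs5* and the markers at 0 were chosen after their values were seen. Members, lists and rule were chosen with earlier results of these data known. Coordinates are those of GENCODE for GRCm38. A few genes are not reported here.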

Additional observations from a re-analysis of the deposited data

Results flagged for a closer look

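In basal cells 37 values stood apart from the other fragments of their location by Dixon's criterion, of 332 groups of values examined, and chance alone sets apart about 1 in 20 groups. Many are a few UMIs in a group otherwise at 0. N24 stood apart in 8 genes, with 178 CPM of *Sox4* (119 to 126 in the other nipple fragments), 787 of *Runx1* (481 to 530.3) and 57.1 of *Etv5* (7.39 to 14.4). It also held 91.0 CPM of *Csrp2* (2.16 to 12.8), which is the nipple value nearest to TEB, and 7.14 of *Top2a*, 3.57 of *Erbb2*, 1.78 of *Sema3b* and 1.78 of *Kif11*, each against 0.

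N21 was low for *Cp* (113 CPM, the others 241 to 267), *Ccnd2* (60.6, the others 137 to 153) and *Cdkn1a* (591, the others 1013 to 1048). It was high for *Ltbp2* (221, the others 130.2 to 136), *Scd2* (21.6, the others 0 to 3.57) and *Sema3a* (2.16, the others 0). N22 held 166 CPM of the pericyte gene *Rgs5* (0 to 21.4 in the others), 205 of *Snai2* (118 to 128), and 1.60 each of *Gpx2* and *Slc6a15* (0 in the others), and its cells held 1529.7 genes at 5000 UMIs (1516 to 1518). N23 held 1255 CPM of *Epcam* (784 to 794), 69.0 of *Sfrp2* (51.2 to 54.1) and 7.39 of *Cdkn1b* (0).

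Among TEB fragments, T31 was apart for *Serpinb11* (110 CPM, the others 242 to 311), *Sfrp1* (89.4, the others 3.38 to 9.63), *Scd2* (248, the others 56.4 to 107) and *Phlda2* (78.2, the others 12.7 to 18.0). T33 was high for *Cst3* (1556 CPM, the others 622 to 941), *Slc38a1* (118, the others 26.8 to 55.9), *Cd200* (104, the others 2.97 to 33.8), *Rrad* (11.3, the others 0) and *Ifi202b* (8.46, the others 0 to 1.58). T32 held 8.92 CPM of *Mbp* (0 to 1.58 in the others), 5.95 of *Rgs5* (0), 2.97 of *Scn7a* (0 to 0.792) and 2.97 of *Mmp3* (0). T34 held 3.21 CPM of *Cp* (0 to 0.792) and T42 8.71 of *Ccdc129* (0 to 2.25).

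The nipple minus TEB difference of 53 named genes differed between basal and ER+ luminal cells, and of 24 between basal and ER- luminal cells, by the class by location test (edgeR, adjusted p under 0.05). Over all genes tested the shares were 5.21% and 1.43%. Many named genes were chosen for their large basal differences, so the counts of 53 and 24 are no result. Values are basal minus luminal on the log2 scale. Where a class has no UMI in a location, as for *Ltbp2*, *Bex2* or *Birc5*, the fitted value depends on the prior count and is no bound. The leading nipple genes exceeded ER+ luminal cells by 9.97 for *Slpi*, 6.34 for *Tspan8*, 7.05 for *Cp*, 8.41 for *Ltbp2* and 2.51 for *Tppp3*. In contractile and membrane genes the excess was 2.29 for *Actn1*, 1.07 for *Myl6*, 3.65 for *Lama5*, 1.91 for *Itga5*, 0.72 for *Itgb1* and 2.55 for *Col6a1*. TGF-beta genes followed with 2.69 for *Pmepa1*, 5.39 for *Tgfbr1* and 2.03 for *Tgfbr2*. For genes of galectins, S100 proteins, annexins, proteases, their receptors or inhibitors and complement regulators it was 1.82 for *Lgals1*, 6.83 for *Lgals9*, 2.29 for *S100a6*, 1.48 for *Anxa2*, 2.92 for *Prss23*, 1.86 for *Plaur*, 2.89 for *Serpinb5* and 1.80 for *Clu*. The remaining positive values were 0.54 for *Rps29*, 1.97 for *Hmox1*, 1.17 for *Krt8*, 3.31 for *Postn*, 2.62 for *Runx1*, 2.42 for *Sox4*, 2.13 for *Sox9* and 1.98 for *Gadd45b*.

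On the TEB side the difference from ER+ luminal cells was -9.91 for *Bex2*, -8.17 for *Sema3b* and -10.09 for *Col9a1*. Cell cycle genes had -6.23 for *Birc5*, -7.81 for *Mcm2*, -5.05 for *Ccnd2*, -1.19 for *Cdk4* and -6.10 for *Cdkn1c*. Matrix genes had -2.40 for *Col4a1*, -3.28 for *Col4a2*, -3.31 for *Lamb1* and -1.70 for *Sparc*, the last of which was higher in nipple in basal cells. Signalling and secreted genes had -4.95 for *Erbb2*, -2.88 for *Igfbp4*, -3.54 for *Sema4a* and -4.51 for *Serpinf1*. The rest were -1.44 for *Prdx2*, -5.54 for *Scd2*, -2.48 for *Fdps*, -1.50 for *Atp5g2*, -3.40 for *Mest*, -7.01 for *Phlda2* and -0.91 for *Jun*.

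Against ER- luminal cells the positive values were 9.22 for *Slpi*, 7.08 for *Tspan8*, 7.13 for *Cp*, 12.16 for *Ltbp2*, 3.80 for *Lama5*, 3.15 for *Pmepa1* and 4.58 for *Sfrp1*. To these came 1.84 for *Errfi1*, 4.56 for *Igfbp5*, 2.26 for *Lgals1*, 5.90 for *Lgals9*, 1.86 for *Serpinb5* and 3.43 for *Postn*. Negative values were -6.99 for *Bex2*, -7.07 for *Sema3b*, -7.37 for *Birc5*, -2.09 for *Ccnd1*, -1.75 for *Cdkn1a*, -4.90 for *Csrp2* and -1.17 for *Hes1*. The other negative values were -3.96 for *S100a14*, -3.90 for *Serpinf1*, -3.51 for *Krt23* and -1.55 for *Jun*.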

How the results depend on the processing

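The number of called basal genes, 1309 (656 higher in nipple and 653 in TEB), stayed within 1.5 times under RLE scaling, DESeq2, no filter on low counts, fits of nipple and TEB alone, fragments of 10 or more basal cells, and changed UMI, ERCC and margin limits (1022 to 1572). Leaving out 1 fragment gave 1116 to 1285, and T31 to T34 alone 901 (503 and 398). Settings that left out cells, reads or genes gave fewer calls, and why was not tested. The count was 339 (174 and 165) without cells holding both *Krt5* and *Krt18*, which removed 58 of 101 nipple cells. Of 108 named called genes refitted there, 38 lost their call. It was 848 (434 and 414) called genes without pericyte-marker cells and 770 (412 and 358) without suprabasal-marker cells. Thinning to 5000 UMIs gave 559 (318 and 241, of 2278 genes tested). Leaving out genes with over 20% of their nipple or TEB counts expected from other wells gave 850 (441 and 409). Judged in the higher location only, an alternative chosen after seeing the data, that last count was 1254 (624 and 630).

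ERCC library sizes gave 3924 calls (137 and 3787), so 3.49% of calls were higher in nipple against 50.1%. Of 126 named called genes 74 kept their call under every alternative fitted and 82 under all but ERCC scaling. A gene too low to be refitted in an alternative counts as kept there. Only 83 of the 126 were refitted after thinning. Without genes with over 20% of their nipple or TEB counts expected from other wells, 81 were. ERCC scaling turned 20 named genes towards TEB, some of them not called at standard scaling: *Myl9* (-0.32), *Myl6* (-0.79), *Myh9* (-1.09), *Sparc* (-0.28), *Col17a1* (-0.61), *Lamb3* (-0.14), *Itgb1* (-0.62), *Fgfr1* (-0.73), *Rps29* (-0.62), *Rps26* (-1.17), *Prdx1* (-1.22), *Elovl1* (-0.42), *Sqle* (-1.14), *Ndufa4* (-1.25), *Krt8* (-0.40), *Lcn2* (-0.032), *Epcam* (-1.11), *Gnas* (-1.22), *Klf6* (-0.64) and *Junb* (-0.94).

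Against ER+ luminal cells DESeq2 gave 788 calls and thinned cells 195, against 457, with 334 to 452 when 1 fragment was left out and 569 with no fragment block. Against ER- luminal cells no filter gave 166, DESeq2 234 and thinned cells 68, against 105, with 74 to 106 when 1 fragment was left out and 102 with no fragment block. The differences in UMIs per ERCC UMI and genes per cell kept their sign and call in all alternatives (-93.8 to -84.9 and -415 to -394 with 1 fragment left out, and -721 genes at 10000 UMIs). The cause of these shifts was not tested. No paired analysis was possible because nipple and TEB fragments share no number in their names. With 6 to 29 basal cells a fragment, low genes such as *Lgr5*, *Tbx2* and *Sema3a* could not be tested.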
